A study of Drosophila melanogaster with 4 samples.

Results

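The proteasome subunit genes of Drosophila melanogaster were followed in polyadenylated RNA of wing imaginal discs. They were taken as all genes whose current symbol begins with Prosalpha, Prosbeta, or Rpn or Rpt and a digit. Of 14061 genes that could be named in the count files, 48 met this rule. They comprise 32 constitutive genes, 1 for each subunit considered here, and 16 paralogues with a T or R after the subunit number in the symbol, many of which are known for expression in testis. All 32 constitutive genes and 2 of the paralogues, Prosalpha1R and Rpt3R, had a mean of at least 50 counts over the libraries, as did 7600 named genes in all, which are called the tested genes below.

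Discs of larvae in the third instar, female by the methods of the study, were pooled, 300 per library, and 1 library was sequenced for each of 4 genotypes. In the sd::Gal4>UAS::FH-cortoCD and sd::Gal4>UAS::RpL12-Myc genotypes the scalloped (sd) driver expresses Gal4, a transcription activator of yeast, in wing cells of the disc. Gal4 in turn switches on either the tagged chromodomain of Corto with a nuclear localization signal, or Myc-tagged RPL12. The sd::Gal4/+ control carries the driver without a transgene, and w1118 carries neither. For the over-expressing libraries, sample titles and genotype fields of the record exchange the transgenes. The titles were followed, since the read counts that the study prints under each genotype are those of the library with that title. The wording "the library labelled FH-cortoCD" or "labelled RpL12-Myc" marks that the counts of the over-expressed genes, given next, do not match the titles. RpL12 itself had 29086 counts in the library labelled FH-cortoCD, 24106 in that labelled RpL12-Myc, 17429 in sd::Gal4/+ and 9993 for w1118, and corto had 6164, 7836, 7766 and 5424 counts in the same order. The larger log2 ratio to sd::Gal4/+ of either gene was therefore found under the label of the other transgene, at 0.49 against 0.16 for RpL12 and -0.29 against -0.58 for corto. Neither tag was counted.

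The proteasome degrades proteins that carry chains of ubiquitin. Its core particle is a barrel of stacked rings built from 7 different alpha subunits and 7 different beta subunits, and the cutting sites lie inside, on Prosbeta1, Prosbeta2 and Prosbeta5. The regulatory particle sits on the end of the barrel. Its base holds a ring of the ATPases Rpt1 to Rpt6, which unfold the substrate, together with Rpn1, Rpn2 and the ubiquitin receptors Rpn10 and Rpn13. Its lid, built from Rpn3, Rpn5 to Rpn9, Rpn11 and Rpn12, includes the enzyme that removes ubiquitin. Subunits are incorporated in fixed proportions, and in flies the transcription factor CncC, a product of the cnc gene, is known to activate proteasome genes when the proteasome is inhibited. The study asked which transcripts change when the Corto chromodomain or RPL12 is over-expressed in the disc, and here that question is put to the subunit genes.

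The summed counts of both reads of each pair came to between 26833482 and 44736060 per library. Of the wing disc markers vg, sd, nub, ap, hth and wg all were detected, with summed levels of 815 and 767 counts per 1000000 of the scaled library (CPM) in the libraries with the FH-cortoCD and RpL12-Myc labels, 1191 in sd::Gal4/+ and 1276 for w1118. Both over-expressing libraries were above both controls for nub and below both for the other 5. Markers of other tissues also differed between the libraries. The 4 fat body markers summed to 565, 845, 1219 and 49.5 CPM in the same order of libraries. Fbp1 alone had 196, 366, 721 and 24.9 CPM. Of the 4 markers 1, Lsp1beta, was higher in both over-expressing libraries than in sd::Gal4/+. The 5 midgut markers summed to 23.1 and 153 CPM in the over-expressing libraries, against 0.141 in sd::Gal4/+, where 4 were at 0, and 0.50 in w1118, where 2 were at 0. Jon99Ci was at 0 in every library. The 4 muscle markers summed to 26.9, 25.0, 10.02 and 9.97 CPM, the 3 blood cell markers to 44.7, 59.4, 40.7 and 48.4, the 2 salivary gland markers found to 1.94, 3.71, 0.450 and 3.32, and the 4 neuronal markers to 28.2, 26.3, 55.2 and 53.4. Nearly all of the neuronal sum was elav, with 27.8, 25.8, 54.2 and 53.0 CPM. The part of these tissues in the results below was not tested. In pools of whole discs, more cells of a type and more RNA per cell cannot be told apart.

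In each library the constitutive subunit genes were abundantly transcribed. Together they made up 0.573% of all counts in the library labelled FH-cortoCD, 0.596% in that labelled RpL12-Myc, 0.473% in sd::Gal4/+ and 0.463% for w1118. The 95% Wilson intervals of these shares were 0.5709 to 0.5754%, 0.5942 to 0.5987%, 0.4709 to 0.4754% and 0.4602 to 0.4653%. These intervals were computed on both reads of each pair, which counts a fragment more than once, so they are too narrow for counting error. Like all other intervals given here, they take in no spread beyond counting error. Reads without molecular identifiers are not independent molecules, and the genotypes have no replicates. The shares of the over-expressing libraries thus lay above those of both controls. The core particle made up 0.218, 0.212, 0.161 and 0.152% of the counts, the base 0.227, 0.251, 0.193 and 0.192%, and the lid 0.128, 0.133, 0.119 and 0.119%.

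Levels of different genes were compared as CPM per kilobase of the counted entry, a stretch of exons that the deposited files count as 1 unit, and the most abundant entry stood for its gene. The median of the 32 genes was 149.8 CPM per kilobase in the library labelled FH-cortoCD, 149 in that labelled RpL12-Myc, 108 in sd::Gal4/+ and 104 for w1118. Their median level stood at percentile 94.7, 94.8, 92.9 and 92.9 of the tested genes in these libraries. The lowest member in every library was Prosalpha1, an alpha ring subunit, at percentile 86.3, 86.6, 80.5 and 81.7. Prosalpha1 and its neighbour Prosalpha1R are near-identical copies, and reads that matched the genome more than once had been removed before counting, so that the levels of both are uncertain. Without Prosalpha1 the highest member exceeded the lowest 2.99-fold in the library labelled FH-cortoCD, 2.88-fold in that labelled RpL12-Myc, 2.27-fold in sd::Gal4/+ and 2.07-fold in w1118. The coefficient of variation over these genes was 28.4, 25.4, 22.0 and 18.01%.

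In sd::Gal4/+ the highest levels were those of Prosalpha2, Prosalpha6 and Rpn5. Prosalpha2, another alpha ring subunit, had 245 and 241 CPM per kilobase in the libraries with the FH-cortoCD and RpL12-Myc labels, 180.1 in sd::Gal4/+ and 133 for w1118. It is the member on which the controls were farthest apart, with a log2 ratio of w1118 to sd::Gal4/+ of -0.44. Rpn5, a scaffold subunit of the lid, was at 157, 161, 156 and 147 CPM per kilobase. It was therefore near the top of the controls but near the middle of the over-expressing libraries. The lowest levels in sd::Gal4/+, after Prosalpha1 at 45.9 CPM per kilobase, were those of the ubiquitin receptors Rpn13 at 79.3 and Rpn10 at 80.0. The order of the 32 levels was similar between the controls (Spearman's rho 0.957) and between the over-expressing libraries (0.923), and less so across them (0.786 to 0.828). These coefficients describe 32 genes that share libraries and entry lengths.

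**Figure D1:**
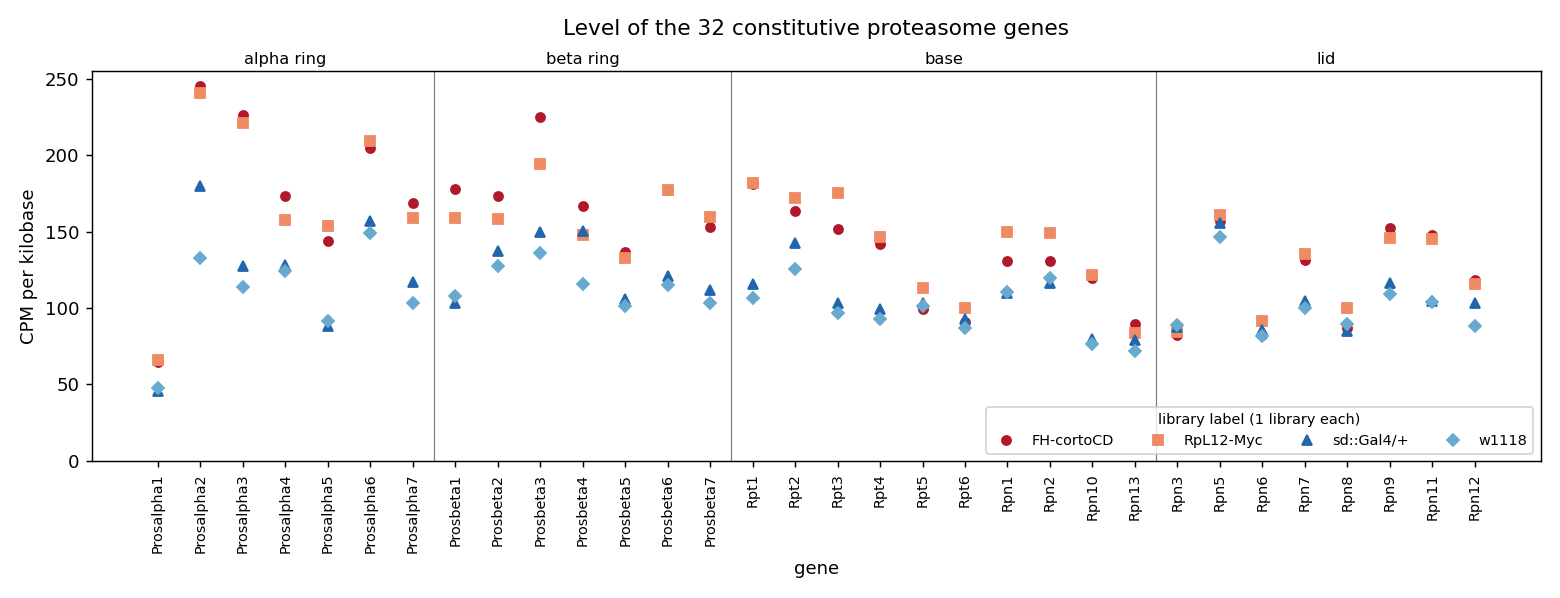
Level of each constitutive proteasome gene (CPM per kilobase of its most abundant entry, linear axis from 0) in each of the 4 libraries, grouped by subcomplex. Each symbol is 1 library. In the alpha and beta rings the circles and squares of the over-expressing libraries lie mostly above the triangles and diamonds of the controls, while in the lid several genes, such as Rpn3 and Rpn5, have all 4 symbols close together.

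The levels of most constitutive subunit genes were higher in both over-expressing libraries than in the control with the driver alone. The median log2 ratio to sd::Gal4/+, after scaling by the trimmed mean of M-values (TMM), was 0.38 in the library labelled FH-cortoCD against 0.38 in that labelled RpL12-Myc, beside 0.01 and 0.03 over all tested genes. The ratio was above 0 for 28 of 32 genes in the former and 30 of 32 in the latter, beside 50.8 and 53.0% of all tested genes. In w1118, which has neither driver nor transgene, the median was -0.08 beside -0.01 over all tested genes, and 7 of 32 genes were above 0, beside 46.4%. With 1 library per genotype there is no test of these differences against biological spread.

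A fold limit of 0.5 on the log2 scale was used to count genes. In the library labelled FH-cortoCD 11 of 32 constitutive genes were past it upwards, beside 11.9% of all tested genes, and 0 downwards, beside 12.1%. Scaling by total counts in place of TMM left 6 of these genes past the limit upwards, beside 9.80% of all tested genes. In the library labelled RpL12-Myc 10 were past it upwards, beside 10.4%, and 0 downwards, beside 12.9%. The genes past the limit in both were 8, namely Prosalpha3, Prosalpha5, Prosbeta1, Prosbeta6, Rpn10, Rpt1, Rpt3 and Rpt4, beside 7.97% of tested genes, and 0 were past it downwards in both, beside 9.59%. In w1118 0 of 32 were past it in either direction, beside 1.39% upwards and 2.93% downwards. Both over-expressing libraries exceeded both controls for 26 of 32 genes, beside 39.1% of tested genes, and both were below both controls for 1, the lid subunit Rpn3, beside 34.5%. The comparisons with sd::Gal4/+ share that control library.

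The ratios of the subunit genes were also less spread than those of all tested genes. Their standard deviation was 0.253 and 0.233 on the log2 scale in the libraries with the FH-cortoCD and RpL12-Myc labels, beside 0.692 and 0.805 over all tested genes. Other complexes, described below, had similar values. They were 0.268 and 0.255 for the COP9 signalosome, 0.331 and 0.319 for eIF3 and 0.227 and 0.213 for CCT. The ratios of all tested genes ran from -6.58 to 9.37 and from -9.90 to 11.94. The spread of the subunit genes was not compared with that of genes of similar abundance. No constitutive member reached a log2 ratio of 1 in either over-expressing library, the highest values being 0.83 for Prosalpha3 and 0.81 for Prosalpha5. Counting intervals on these ratios, from the first reads of the pairs alone, had a median half-width of 0.0740 and 0.0735. They lay wholly above 0 for 26 and 28 genes, and wholly below 0 for 1 gene, Rpn3, in the former and 0 in the latter. In w1118 they lay wholly above 0 for 0 genes and wholly below 0 for 18. The same was not computed for all tested genes, so these counts have no background beside them. Such intervals narrow with the number of reads, and the constitutive genes are abundant.

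**Figure D2:**
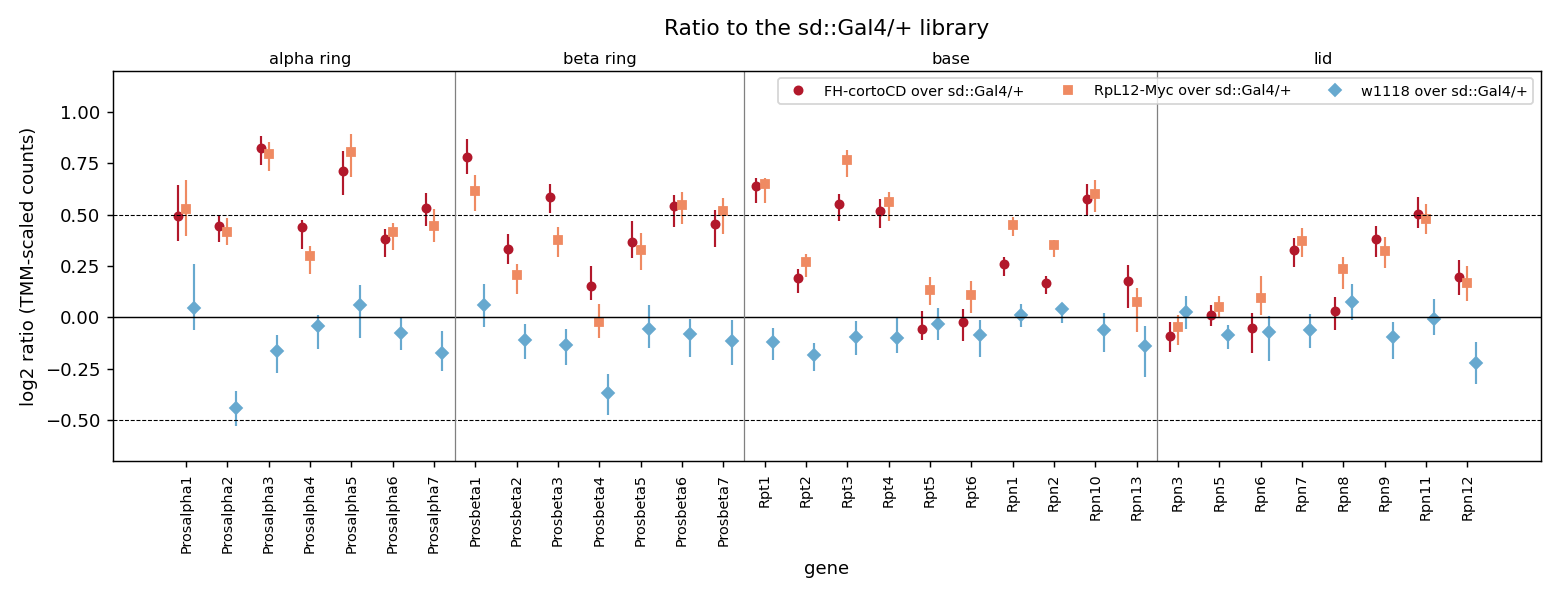
Log2 ratio of each constitutive proteasome gene to the sd::Gal4/+ library (points, TMM-scaled counts of both reads) with 95% intervals for counting error from the first reads alone (bars). Dashed lines mark the limits of 0.5 and -0.5. The over-expressing libraries reach 0.83 at Prosalpha3 and 0.81 at Prosalpha5, while the w1118 points lie between -0.44 and 0.07.

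The alpha ring, which forms the gated ends of the core barrel, had median log2 ratios of 0.50 in the library labelled FH-cortoCD against 0.45 in that labelled RpL12-Myc. All 7 genes were above both controls in both of these libraries, beside 39.1% of tested genes. In each library 3 were past the limit, beside 11.9 and 10.4% of tested genes upwards. The highest ratio in the library labelled FH-cortoCD was that of Prosalpha3, the subunit whose counterpart in yeast helps to close the gate of the barrel. Prosalpha3 had 9558 counts in that library, 9725 in that labelled RpL12-Myc, 4531 in sd::Gal4/+ and 3188 for w1118. The log2 ratios to sd::Gal4/+ were 0.83 (counting interval 0.74 to 0.89), 0.80 (0.71 to 0.85) and -0.16 (-0.27 to -0.09). The counts of the over-expressing libraries were thus close to each other and stood apart from both controls. The highest ratio in the library labelled RpL12-Myc was that of Prosalpha5, with 4072, 4518, 2088 and 1716 counts in the same order of libraries and ratios of 0.71, 0.81 and 0.06.

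The lowest ratios in this ring were still positive. Prosalpha6 had 8882, 9445, 5726 and 4275 counts and ratios of 0.38, 0.41 and -0.08. Prosalpha4 had 8623, 8147, 5344 and 4083 counts and ratios of 0.44, 0.30 and -0.04. Neither was past the limit in an over-expressing library, although both had counting intervals above 0 there. Prosalpha2, with 9504, 9702, 5868 and 3404 counts, had ratios of 0.45 and 0.42 to sd::Gal4/+. Its difference between the controls was of similar size. Prosalpha7 and Prosalpha1, the remaining structural subunits of the ring, were at 0.53 and 0.45 and at 0.49 and 0.53, each past the limit in a single over-expressing library.

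The beta ring, which holds the cutting sites, had median log2 ratios of 0.46 and 0.38 in the libraries with the FH-cortoCD and RpL12-Myc labels. In each, 3 of 7 genes were past the limit, beside 11.9 and 10.4% of tested genes upwards. Of the catalytic subunits, only Prosbeta1, which cuts after acidic residues, was past the limit. It had 6364 counts in the library labelled FH-cortoCD, 5907 in that labelled RpL12-Myc, 3114 in sd::Gal4/+ and 2557 for w1118. Its log2 ratios of 0.78 (counting interval 0.70 to 0.87) and 0.62 (0.52 to 0.69) were the highest of the ring in both libraries, and w1118 was at 0.06. Prosbeta2, which cuts after basic residues, had 7694, 7308, 5125 and 3738 counts and ratios of 0.34, 0.20 and -0.11. Prosbeta5, which cuts after hydrophobic residues, had 5186, 5245, 3374 and 2556 counts and ratios of 0.37, 0.33 and -0.06. The over-expressing libraries were above the controls for all 3 catalytic subunits, and the size differed among them.

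The lowest of the ring was Prosbeta4, a subunit without a cutting site. It had 5437, 5006, 4108 and 2502 counts and ratios of 0.15 and -0.02 to sd::Gal4/+, while w1118 was at -0.37. For this gene sd::Gal4/+ was as high as the library labelled RpL12-Myc, and w1118 was the lowest library. Of the remaining subunits without a cutting site, Prosbeta3 was at 0.59 and 0.38, Prosbeta6 at 0.55 and 0.55, and Prosbeta7 at 0.46 and 0.52.

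The base of the regulatory particle divided into genes with high and low ratios. Its medians were 0.23 in the library labelled FH-cortoCD against 0.40 in that labelled RpL12-Myc. The same 4 of 10 genes, Rpt1, Rpt3, Rpt4 and Rpn10, were past the limit in both, beside 7.97% of tested genes. Rpt1, an ATPase of the unfolding ring, was highest in the library labelled FH-cortoCD, with 11545, 12073, 6222 and 4514 counts and ratios of 0.64, 0.65 and -0.12. Its entry lies within the span of a gene on the same strand, CG17985, whose own entry had 792, 892, 527 and 465 counts. Rpt3, another ATPase of that ring, was highest in the library labelled RpL12-Myc, with 9534, 11484, 5459 and 4019 counts and ratios of 0.55, 0.77 and -0.10. Rpn10, a ubiquitin receptor, had 7184, 7593, 4042 and 3048 counts and ratios of 0.58, 0.60 and -0.06. For these genes the over-expressing libraries and the controls formed separate pairs.

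The other ATPases differed less between the libraries. Rpt5 was lowest in the library labelled FH-cortoCD, with 6850, 8102, 5978 and 4610 counts and ratios of -0.06, 0.13 and -0.03. Rpt6 and Rpt2 were at -0.03 and 0.19 in the library labelled FH-cortoCD against 0.11 and 0.27 in that labelled RpL12-Myc. Rpn13, the other dedicated ubiquitin receptor of the base, had the lowest ratio of the base in the library labelled RpL12-Myc, with 3300, 3198, 2455 and 1754 counts and ratios of 0.18, 0.07 and -0.14. Rpn1 and Rpn2, the large scaffold proteins of the base, were at 0.26 and 0.17 in the library labelled FH-cortoCD, against 0.45 and 0.35 in that labelled RpL12-Myc. The proteins of Rpt1 to Rpt6 form a single ring with 1 copy of each, and their transcripts here ranged from -0.06 to 0.64 and from 0.11 to 0.77 on the log2 scale.

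The lid showed the smallest differences, with medians of 0.11 and 0.20 in the libraries with the FH-cortoCD and RpL12-Myc labels. Of its 8 genes 1 was past the limit in the former and 0 in the latter, beside 11.9 and 10.4% of tested genes upwards. The highest was Rpn11, the enzyme that removes ubiquitin chains from substrates, with 7718 counts in the library labelled FH-cortoCD, 7883 in that labelled RpL12-Myc, 4575 in sd::Gal4/+ and 3581 for w1118. Its ratios were 0.50, 0.48 and -0.01, so that it was just past the limit in the former and just short of it in the latter. The lowest was Rpn3, a scaffold subunit, with 6218, 6650, 5561 and 4457 counts and ratios of -0.09, -0.05 and 0.03. Rpn5 had 12607, 13458, 10520 and 7811 counts and ratios of 0.01, 0.05 and -0.09. For both of these scaffold genes the scaled levels of all 4 libraries were close together. Of the other lid genes, the scaffold subunits Rpn7, Rpn9, Rpn12 and Rpn6 were at 0.33, 0.38, 0.20 and -0.05 in the library labelled FH-cortoCD, against 0.37, 0.33, 0.17 and 0.10 in that labelled RpL12-Myc. Rpn8, the partner of Rpn11, was at 0.03 and 0.23.

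A direct ratio of the over-expressing libraries set the parts of the particle side by side. No constitutive gene was past 0.5 in either direction between the library labelled FH-cortoCD on the one side and that labelled RpL12-Myc on the other, beside 3.61% of tested genes upwards and 1.75% downwards. The median was -0.03 beside -0.02, and the extremes were 0.21 for Prosbeta3, a subunit without a cutting site, and -0.21 for Rpt3. All 6 ATPases and 9 of the 10 base genes were below 0, that is, lower in the library labelled FH-cortoCD, and 5 of the 7 beta ring genes were above 0, beside 46.2% of all tested genes. After the correction for entry length described next, 2 of the 10 base genes and 4 of the 7 beta ring genes were above the curve, beside 48.3%. The counting intervals lay wholly above 0 for 7 genes and wholly below for 9, and the same was not computed for all tested genes.

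Entry length moved with these ratios, both for the subunit genes and for genes in general. Over all 7600 tested genes Spearman's rho between the log2 ratio and the entry length was -0.271 for the library labelled FH-cortoCD, -0.120 for that labelled RpL12-Myc, 0.178 for w1118 and -0.331 for FH-cortoCD against RpL12-Myc. Over the 32 subunit genes it was -0.421, -0.214, 0.220 and -0.582. These are descriptions of genes in the same libraries. The subunit entries had a median length of 1088 bases, shorter than the 1720 bases of all tested genes, and those of the core were shorter than those of the base.

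Subtracting a loess curve of the ratio on length, fitted to all tested genes, changed the order of the subcomplexes. The medians became 0.39 and 0.36 for the alpha ring in the libraries with the FH-cortoCD and RpL12-Myc labels, 0.23 and 0.28 for the beta ring, 0.36 and 0.53 for the base and 0.10 and 0.20 for the lid. The base thus stood above the beta ring in both after the correction and below it in the library labelled FH-cortoCD before it. The 32 genes kept a median of 0.30 and 0.33, with 26 and 29 of them above the curve, beside 52.4 and 53.9% of all tested genes. Past the limit upwards were 6 and 8, beside 9.88 and 10.8%. The part of length in the ratios was not tested beyond this correction.

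**Figure D3:**
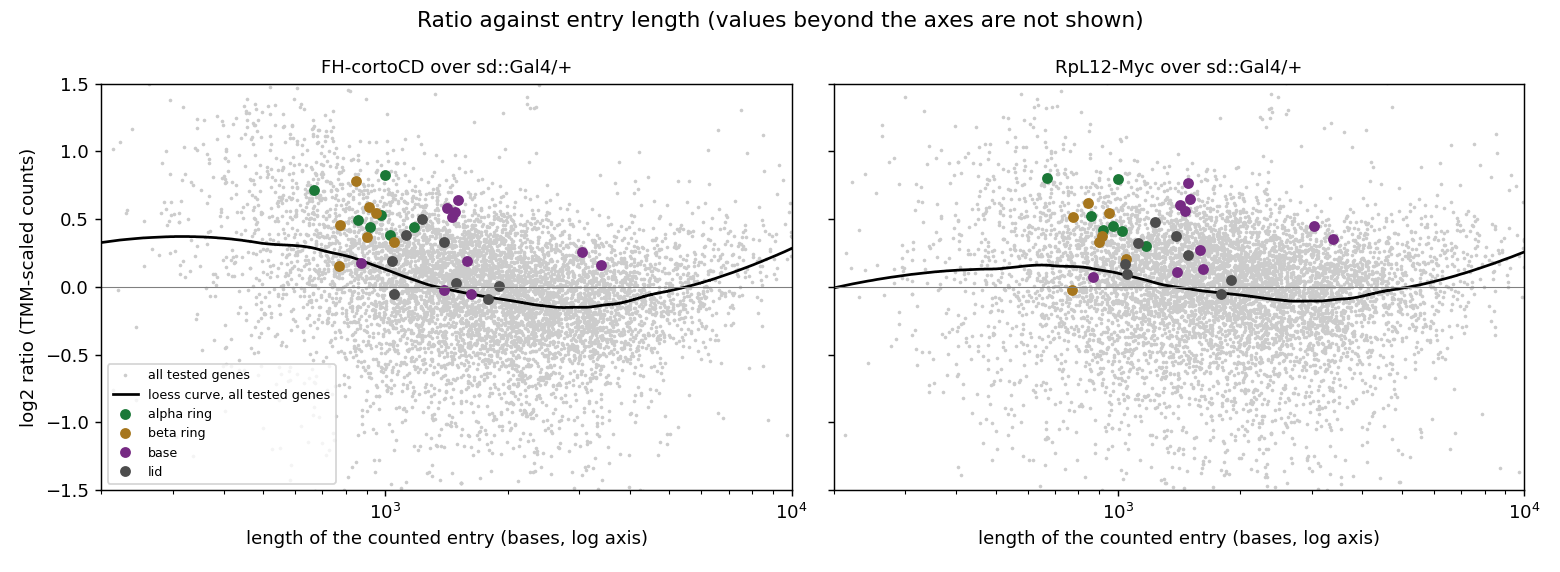
Log2 ratio to sd::Gal4/+ against the length of the counted entry (log axis, bases) for all tested genes (grey) and the constitutive proteasome genes (coloured by subcomplex), with the loess curve over all tested genes (black). Values beyond the axes are not shown. The curve is higher for short entries than for entries of intermediate length, more so in the library labelled FH-cortoCD. It rises again for long entries in both over-expressing libraries. Of the proteasome genes 26 of 32 and 29 of 32 lie above the curve.

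Among 32 constitutive genes 7 were counted in more than 1 entry, and the entries of a gene did not always move alike. Prosalpha5 is the first case. Its 3′ entry on 2R, from 13300607 to 13301274 of the dm3 assembly and shared by its 2 transcripts, gave the ratios of 0.71 and 0.81. The 5′ entries, from 13300269 to 13300548 and from 13300344 to 13300548, gave 0.07 and 0.02 and -0.08 and -0.15. The 3′ entry had 2088 counts in sd::Gal4/+, and the 5′ entries 727 and 388. Over all its entries, the ratios of Prosalpha5 were 0.51 and 0.57, a sum in which the 5′ entries overlap.

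Rpn13 had another arrangement. Its most abundant entry, at the 3′ end on 2R from 9846033 to 9846903, gave the low ratios of 0.18 and 0.07. A 641-base entry upstream of it, from 9847073 to 9847713, had 3147, 3590, 1556 and 1275 counts and ratios of 0.77 and 0.90, with w1118 at 0.06. An 85-base entry still nearer the 5′ end, from 9847733 to 9847817, had 516, 452, 392 and 288 counts. Its ratios were again low, at 0.145 and -0.102. Whether Rpn13 counts among the genes with low or with high ratios therefore depends on the entry, and over all entries it was at 0.42 and 0.44. Its entries overlap, and a 542-base entry inside the 641-base entry had 3145, 3589, 1556 and 1274 counts. The sum over entries thus takes in the same stretches more than once. Rpn6, a lid scaffold subunit, had ratios of -0.05 and 0.10 in its most abundant entry and of 0.51 and 0.55 in a 46-base entry nearer the 5′ end. Prosbeta7, a beta subunit without a cutting site, gave 0.46 and 0.52 at the 3′ end and 0.72 and 0.53 at the 5′ end. Rpn9 of the lid and Prosbeta5 had ranges over entries of at most 0.29 in the over-expressing libraries. Prosalpha1 had ranges of 0.65 and 0.71, set by a 28-base entry at its 5′ end with ratios of -0.11 and -0.19.

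**Figure D4:**
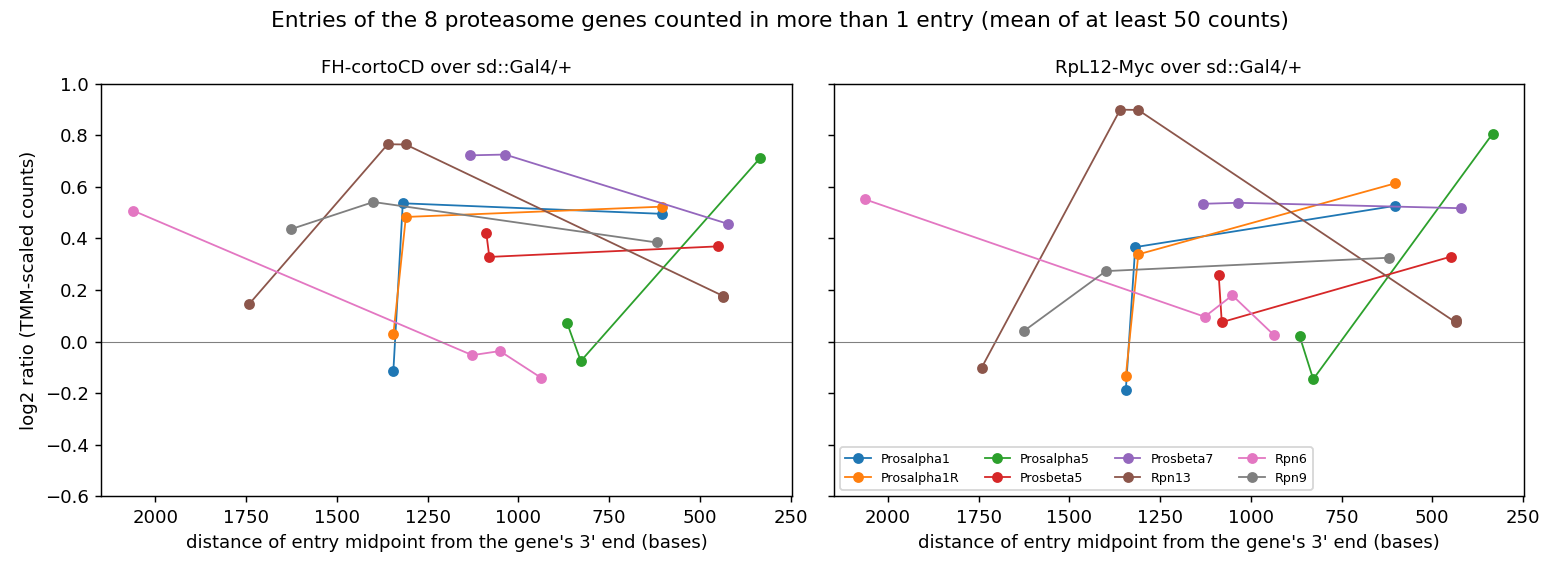
Log2 ratio to sd::Gal4/+ of each entry with a mean of at least 50 counts, against the distance of its midpoint from the 3′ end of the gene (bases, 5′ end to the left), for the 8 proteasome genes with several entries. Lines join entries of 1 gene. Prosalpha5 is high at its 3′ entry (0.71 and 0.81). Rpn13 is high at its overlapping middle entries (up to 0.77 and 0.90) and lower at its 3′ end and at its 5′ entry (0.145 and -0.102).

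The counts were not kept apart by strand. An entry of another gene overlapped that of 13 constitutive members, in 12 cases only on the opposite strand, and reads from such stretches cannot be assigned. The overlap was mostly short, but Rpt6 shares a stretch of 1463 bases with the span of CG1801, whose entry had 646, 671, 484 and 410 counts. First reads covered every base of the entry in 13 to 14 of 32 genes per library. The largest uncovered share was 5.90%, for Prosbeta5 in w1118.

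Of the 16 paralogues 6 had 0 counts in every library and 6 had at most 4 counts in any. Such counts are near the limit that a count of 0 allows, 3 counts or 0.0683 to 0.107 CPM depending on the library. The known testis and male germline markers found were likewise near 0, with a sum of 0.308, 0.455, 0.422 and 0.357 CPM over 6 genes. The remaining 4 paralogues had 10 or more counts in some library. Prosalpha1R, the neighbouring copy of Prosalpha1 on 2R, had 2329 counts in the library labelled FH-cortoCD, 2577 in that labelled RpL12-Myc, 1362 in sd::Gal4/+ and 1098 for w1118, against 2342, 2487, 1396 and 1136 for Prosalpha1. Its ratios were 0.52 and 0.61, and those of Prosalpha1 were 0.49 and 0.53. The entries of both are 857 bases long, and how many reads each copy lost to the removal of repeated matches was not tested.

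Rpt3R, a paralogue of the ATPase Rpt3, had 273, 205, 186 and 130 counts and ratios of 0.30, -0.17 and -0.17. Its counting intervals against sd::Gal4/+ included 0 in all 3 comparisons. Rpn13R, a paralogue of the ubiquitin receptor Rpn13, had 38 and 48 counts in the over-expressing libraries against 9 in sd::Gal4/+ and 6 for w1118, with log2 ratios of 1.77 (counting interval 0.75 to 4.90) and 2.05 (0.99 to 5.08). It lies on X from 5025931 to 5027022, inside the span of an entry without a name from 4979866 to 5118073. That entry had 348, 352, 113 and 105 counts and ratios of 1.37 and 1.33. First reads left 538 and 352 of the 1092 bases of Rpn13R uncovered in the over-expressing libraries and 942 in each control. Whether these reads come from Rpn13R itself was not tested. Rpt6R, a paralogue of the ATPase Rpt6, had 13, 4, 11 and 6 counts.

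The binomial test of edgeR was used with the cutoffs of the study, at least 1 entry past 1 on the log2 scale with its adjusted P-value under 4e-18. Applied to TMM-scaled ratios, they called 0 of 48 proteasome genes in either over-expressing library or in w1118. Of all 14061 named genes they called 1.85% higher and 2.36% lower for the label FH-cortoCD, 1.29% and 3.15% for RpL12-Myc, and 0.0427% and 0.356% in w1118. The fold changes that the study prints are ratios of unscaled counts, so that its own limit falls on another scale. With unscaled ratios the same cutoffs called 3 proteasome genes higher for the label FH-cortoCD, namely Prosalpha3, Prosbeta1 and Rpn13, beside 2.97% of named genes. For RpL12-Myc they called 4, namely Prosalpha3, Prosalpha5, Rpt3 and Rpn13, beside 2.69%. None was called lower, beside 1.41% and 1.98%. Unscaled ratios of the over-expressing libraries are shifted upwards by their larger size. Rpn13R was past 1 on the TMM scale in both of these libraries, and its adjusted P-value did not pass. On the adjusted P-value alone, at the most abundant entry, 23 and 22 of 32 constitutive genes passed upwards, beside 12.7 and 13.0% of tested genes, and 0 downwards, beside 11.5 and 11.0%. In w1118 0 passed upwards, beside 0.566%, and 2 downwards, beside 1.75%. This test compares the reads of single libraries, not genotypes. For a given difference its P-value also falls as the number of reads rises, and the constitutive genes are more abundant than most tested genes. The shares that passed on the P-value alone were not compared with those of genes of similar abundance. The part of abundance in that contrast was therefore not tested.

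Genes that help to build or regulate the proteasome had median ratios close to 0. Of 11 listed assembly factors and regulators 1 was past the limit upwards and 1 downwards in the library labelled FH-cortoCD, against 0 and 1 in that labelled RpL12-Myc. Among all tested genes the shares were 11.9% upwards and 12.1% downwards in the former, and 10.4% and 12.9% in the latter. The medians of the 11 genes were -0.06 and -0.03. Pomp, the maturation factor of the core particle, had 5504, 4718, 5006 and 3438 counts and ratios of -0.11, -0.39 and -0.20. Sem1, a small subunit of the lid outside the naming rule, had 2181, 1839, 1387 and 1070 counts and ratios of 0.40, 0.10 and -0.03. The gene past the limit upwards was PI31, which encodes a proteasome-binding regulator, with 1359, 1283, 768 and 590 counts and ratios of 0.57 and 0.43.

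The gene past the limit downwards in both over-expressing libraries was cnc. Its most abundant entry, 2224 bases shared by 11 of its transcripts, had 1498, 1480, 2402 and 1922 counts and ratios of -0.93 and -1.01, with w1118 at 0.02. Its entries did not move together. Of 10 entries with a mean of at least 50 counts 5 and 6 were below 0, the values ran from -0.93 to 0.54 and from -1.01 to 0.39, and the entry shared by 14 transcripts was at -0.01 and -0.08. The transcripts that encode CncC were not told apart from the others. Of 4 genes listed as antioxidant targets of CncC, 2 were past the limit upwards in both libraries, beside 7.97% of tested genes. They were GstD1, a glutathione transferase, with 24617, 19559, 10835 and 7794 counts and ratios of 0.93 and 0.55, and Gclm, a subunit of the enzyme that starts glutathione synthesis, with ratios of 0.55 and 0.50. The other 2, Gclc and Keap1, were within the limit, at -0.02 and 0.25 and at -0.06 and 0.14.

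The list for ubiquitin held 4 genes that encode it and 4 that activate, conjugate or bind it. Of these 8, 2 were past the limit upwards in the library labelled FH-cortoCD against 1 in that labelled RpL12-Myc, with medians of -0.15 and -0.04. Among all tested genes the shares past it upwards were 11.9 and 10.4%. RpL40, which encodes ubiquitin fused to a ribosomal protein, had 60926 and 52488 counts in the over-expressing libraries, 22857 in sd::Gal4/+ and 17425 for w1118, and ratios of 1.16 and 0.89. The other fusion gene, RpS27A, was at 0.52 and 0.11. Ubi-p63E and Ubi-p5E, which encode chains of ubiquitin alone, were at 0.00 and 0.15 and at -0.45 and -0.10. The other 4, Uba1, the activating enzyme, eff, a conjugating enzyme, and Rad23 and Ubqn, which bring ubiquitinated proteins to the proteasome, were all below 0 in both libraries. Their ratios ran from -0.36 to -0.13 and from -0.44 to -0.03. Of 4 genes for the TER94 complex, which extracts ubiquitinated proteins, 0 were past the limit in either library, with medians of 0.12 and 0.25.

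The COP9 signalosome and the translation initiation factor eIF3 are built on the same plan as the lid, with subunits of the same families, and the chaperonin CCT is a further abundant multi-subunit complex. Among all tested genes 11.9 and 10.4% were past the limit upwards, and 12.1 and 12.9% downwards, in the over-expressing libraries. Of 7 tested signalosome genes 1 was past the limit upwards in each over-expressing library, CSN6, at 0.53 and 0.60, and the medians were 0.24 and 0.05. Of 13 tested eIF3 genes 4 and 3 were past it upwards and 0 and 1 downwards, with medians of 0.38 and 0.38. The eIF3 genes past the limit upwards in both were eIF3f1 at 0.68 and 0.59, eIF3h at 0.85 and 0.83 and eIF3i at 0.61 and 0.55, all subunits of the factor that loads ribosomes on mRNA. Of 8 CCT genes, which encode the ring that folds actin and tubulin, 2 and 4 were past it upwards, with medians of 0.36 and 0.52. CCT2 was at 0.54 and 0.72 and CCT5 at 0.70 and 0.82. The medians of eIF3 and CCT were thus of similar size to those of the constitutive proteasome genes, and the difference between the lists was not tested.

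**Figure D5:**
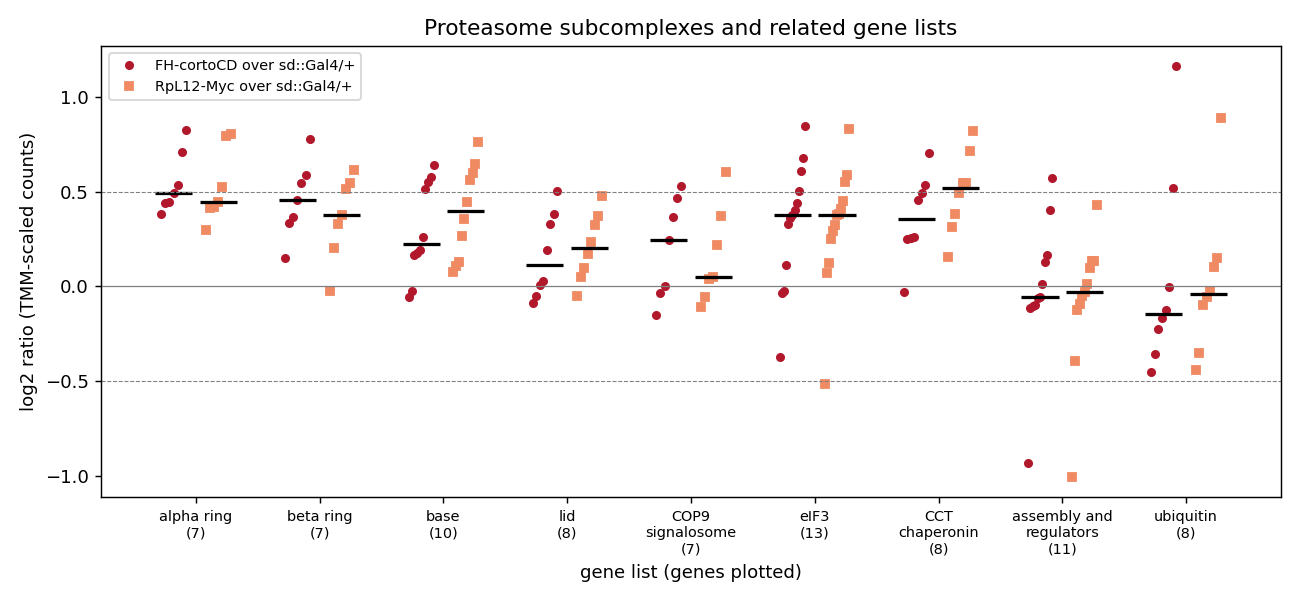
Log2 ratio to sd::Gal4/+ of the genes of each proteasome subcomplex and of related gene lists, for genes with a mean of at least 50 counts (number plotted in brackets). Each point is 1 gene, horizontal bars are medians, and dashed lines mark 0.5 and -0.5. The medians of the alpha ring (0.50 and 0.45), eIF3 (0.38 and 0.38) and CCT (0.36 and 0.52) lie above that of the lid (0.11 and 0.20), and the low point among the assembly factors and regulators is cnc.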

How the data were processed

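RNA of wing discs from 4 libraries, 1 per genotype, was read as 50 bp pairs. By the methods of the study the authors aligned reads with Bowtie to dm3, removed those matching more than once and counted overlaps with the exons of FlyBase entries. The authors deposited, for each read of a pair, unnormalized counts per entry, and an uncovered-base number. Bowtie, SAMtools, CASAVA 1.7 and edgeR 1.6.10 are named in the submitters' processing notes.

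Here the counts of both reads were summed, which counts a fragment more than once. Of 30950 entries 27902 were named from a later annotation, used for names only; the 3048 others hold 7.48% of the counts. The most abundant entry stood for its gene. Libraries were scaled by TMM over all 4 (edgeR 4.0.16, R 4.3.3), log2 ratios used a prior count of 0.5, and genes with a mean of at least 50 counts were retained. The binomial test of edgeR was run on these summed counts and adjusted by Benjamini-Hochberg over 30950 entries. On simulated counts it recovered 199 (FH-cortoCD) and 200 (RpL12-Myc) of 200 entries changed by 2 on the log2 scale among 30950, with 0 false calls. These counts were Poisson draws without spread between libraries, and only entries with a mean of at least 200 counts were changed. The simulation therefore checks the computation and says nothing of error rates in these unreplicated libraries. Counting intervals of ratios are exact 95% Clopper-Pearson intervals on first reads, while the Wilson intervals of shares used both reads. The loess span was 0.5.

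Named with values were the catalytic beta subunits, the highest and lowest ratio of each subcomplex in each over-expressing library, the 3 highest and 3 lowest levels in sd::Gal4/+, paralogues with at least 10 reads, Pomp, Sem1, cnc and the listed genes past the limit in both over-expressing libraries. Other genes were named after their values were seen. Members and lists were chosen with earlier results of these data known. Alternatives were DESeq2 1.42.0 size factors, total counts, no scaling, no filter on low counts, each read alone, all entries summed, a limit of 1, a length correction, w1118 as control and other cutoffs and tests for calling.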

Additional observations from a re-analysis of the deposited data

How the results depend on the processing

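Of 142 values recomputed under an alternative, 123 kept within the margin used, 19 moved and 0 reversed. Without scaling, the median of all tested genes shifted to 0.26 in the library labelled FH-cortoCD, 0.34 in that labelled RpL12-Myc and -0.36 in w1118, since the libraries differ in size. The proteasome medians then were 0.63, 0.68 and -0.43, with 21 and 24 genes past the limit upwards in the over-expressing libraries, beside 26.5 and 32.6% of tested genes, 6 downwards in w1118, beside 18.4%, and 0 below both controls. For the library labelled FH-cortoCD, 6 genes were past the limit with total counts, beside 9.80% of tested genes, and 6 after the length correction, beside 9.88%. The length correction gave a median of 0.30, and w1118 as the control gave 0.47. At a limit of 1 on the log2 scale the count was 0 in each over-expressing library, beside 3.14 and 2.08% of tested genes upwards. By the cutoffs of the study, 1 proteasome gene, Rpn13R, was called higher in each of these libraries at an adjusted P-value of 0.05 with the binomial test of edgeR, and 1 in each by edgeR's exact test, given the dispersion between the controls, at that cutoff, an alternative chosen after seeing the data. Unscaled ratios, the scale of the fold changes the study prints, gave 3 for the label FH-cortoCD and 4 for RpL12-Myc. The cause of these movements was not tested where no construction shows it. No paired analysis was possible because each genotype has 1 library, and for the same reason no replicate could be left out. Genotype, library and dissection cannot be told apart. Depth limits the paralogues with few counts, not the constitutive genes.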
